A study of Mus musculus with 21 samples.

Results

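The 10 genes described here are genes of mitochondrial fatty acid oxidation and of the fuel choice beside it, measured in islet RNA from mice on 3 diets. They were chosen by name, as Cpt1a, Cpt2, Slc25a20, Acadvl, Acadl, Acadm, Hadha, Hadh, Pdk4 and Ucp2, and all 10 were found among the 55536 genes of the count files. All 10 passed the filter on low counts, with at least 277 read pairs in every sample. CBA males received regular diet (RD, standard chow), high-fat diet (HFD) or HFD containing 0.8 mg/g O304 (HFD-O304), a pan-AMPK activator, from 10 weeks of age. Islets were picked by hand at 20 weeks by the study's account of its results, or after 9 weeks of diet by its methods. Each group had 7 samples, and each sample was RNA of 150 islets from a pool of 5 mice, so that differences between single mice were not measured. RD and HFD are different feeds, so that fat content and every other ingredient changed together, and the effect of O304 was measured on HFD only. HFD-O304 replicate 1 carried a diet tag of HFD in its labels but the title of an HFD-O304 sample, and was grouped by its title. Its values for the 10 genes are part of the comparisons below and so cannot check its group. Fits without this sample were also run.

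Fatty acids enter the mitochondrion as acyl-carnitines. CPT1 at the outer membrane makes the acyl-carnitine and is inhibited by malonyl-CoA, the carnitine/acylcarnitine translocase (Slc25a20) carries it across the inner membrane, and CPT2 returns the acyl group to coenzyme A in the matrix. Acyl-CoA dehydrogenases specific for very long (Acadvl), long (Acadl) and medium (Acadm) chains start each round of beta-oxidation, and Hadha and Hadh encode hydroxyacyl-CoA dehydrogenase steps for long and short chains. PDK4 phosphorylates and so inactivates the pyruvate dehydrogenase complex, which lowers the entry of glucose carbon into the mitochondrion, and UCP2 is a carrier of the inner membrane. In beta cells glucose is the main trigger of insulin secretion, and AMPK, which O304 activates, is known to inhibit the making of malonyl-CoA.

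Read pairs counted on genes ranged from 13809266, in HFD-O304 replicate 2, to 48922569 per sample, with a median of 38719302. Beta cell markers were abundant in all samples, the sum of the 10 markers lying between 9431000 and 13800000 normalized counts (counts divided by the DESeq2 size factor of the sample). Summed acinar markers ranged from 190.5 to 278000 normalized counts over all samples, and the ranges of the 3 groups overlapped. Library numbers in the files put replicates 1 to 4 of all groups in a first set and replicates 5 to 7 in a second, and values within each set are given beside the differences below. The labels do not say whether the sets were made at different times.

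Per length, on a scale of read pairs per kb of exon and scaled to the counted pairs of the library (as in FPKM), Hadh had the highest level of the 10 genes in RD islets, at 132 ± 8.87 (SD, n = 7). Ucp2 followed at 36.5 ± 1.21, Acadvl at 23.0 ± 1.47 and Cpt2 at 18.3 ± 1.23, and the ranges of these 4 genes over the 7 RD samples did not overlap. Hadha at 11.8 ± 0.564 and Acadl at 10.1 ± 0.897 came next and overlapped each other. Cpt1a at 6.60 ± 1.06, Acadm at 5.77 ± 0.333, Pdk4 at 5.36 ± 1.34 and Slc25a20 at 4.02 ± 0.334 were the lowest, each overlapping its neighbour in the order. The order of the first 5 genes was also found in HFD and HFD-O304 islets. Pdk4 was the lowest of the 10 in HFD islets, at 3.21 ± 0.827, and the seventh in HFD-O304 islets, at 10.4 ± 1.27, where its range overlapped that of Cpt1a at 9.07 ± 0.861.

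**Figure D1:**
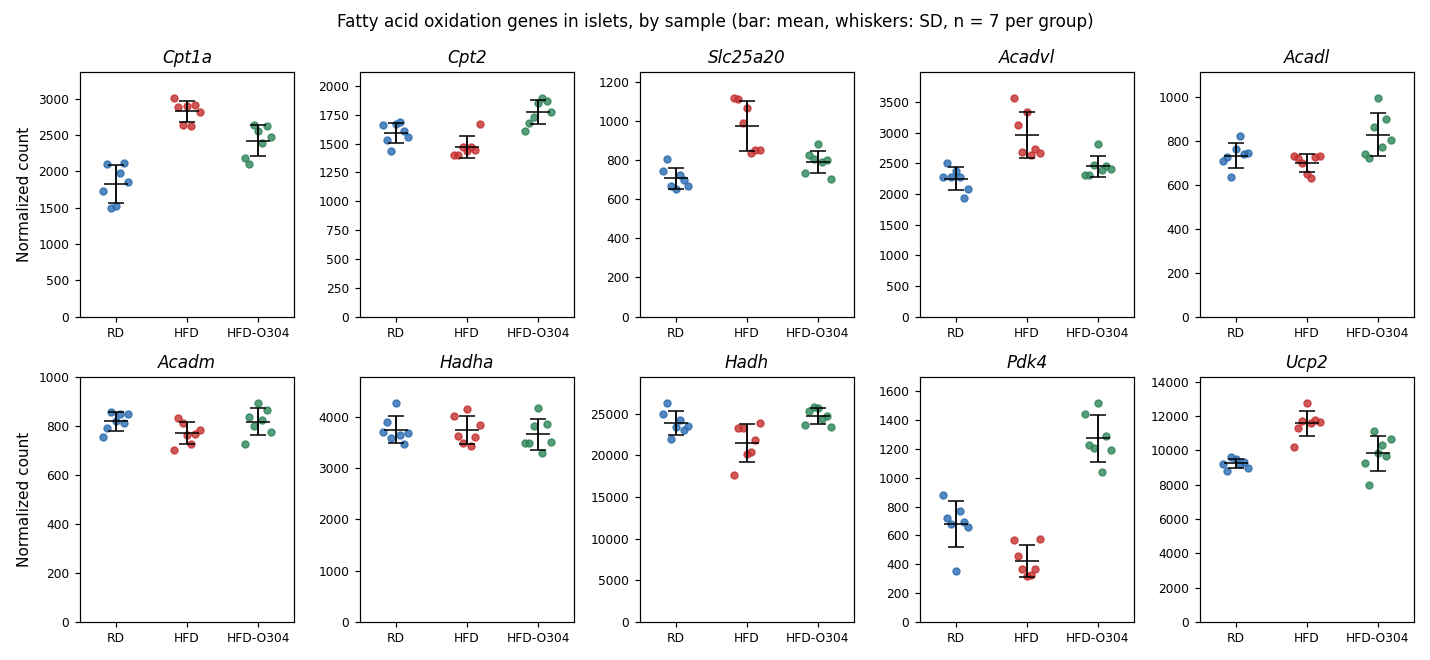
Normalized counts of the 10 genes (vertical axes, each from 0) in each islet sample of the 3 diet groups, with bars at the mean and whiskers of 1 SD (n = 7). The HFD samples of Cpt1a, Slc25a20, Acadvl and Ucp2 lie above every RD sample, and the HFD-O304 samples of Pdk4, between 1038 and 1517, lie above every sample of the other groups. Of all 27229 genes tested, 368 had no overlap, in either direction, between HFD and RD. Those without overlap were 426 between HFD-O304 and RD and 1680 between HFD-O304 and HFD.

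The starts of 3 of the genes are shown because these genes had different patterns over the diets: Cpt1a rose in both HFD groups, Acadvl rose in HFD islets and was lower with O304, and Pdk4 fell in HFD islets and was highest with O304. The 250 bases before the RefSeq start of each gene (GRCm38.p6, the C57BL/6J reference, while the mice were CBA) are given 5′ to 3′ on the strand of the gene. Capitals mark a match to AGGTCA, the half-site that nuclear receptors such as PPARs and ERRs read, on either strand. They lie at chr19:3323051-3323300 on the plus strand for Cpt1a, at chr11:70015429-70015678 on the minus strand for Acadvl and at chr6:5496279-5496528 on the minus strand for Pdk4.
Cpt1a: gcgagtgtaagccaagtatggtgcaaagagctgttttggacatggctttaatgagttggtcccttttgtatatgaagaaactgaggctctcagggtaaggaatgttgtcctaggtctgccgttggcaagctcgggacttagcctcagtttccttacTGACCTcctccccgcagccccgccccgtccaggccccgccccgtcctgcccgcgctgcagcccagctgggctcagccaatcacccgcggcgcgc
Acadvl: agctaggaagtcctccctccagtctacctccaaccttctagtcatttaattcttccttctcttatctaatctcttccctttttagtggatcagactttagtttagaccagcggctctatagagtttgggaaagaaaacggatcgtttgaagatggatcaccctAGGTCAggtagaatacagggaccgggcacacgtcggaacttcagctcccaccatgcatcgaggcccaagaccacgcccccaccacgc
Pdk4: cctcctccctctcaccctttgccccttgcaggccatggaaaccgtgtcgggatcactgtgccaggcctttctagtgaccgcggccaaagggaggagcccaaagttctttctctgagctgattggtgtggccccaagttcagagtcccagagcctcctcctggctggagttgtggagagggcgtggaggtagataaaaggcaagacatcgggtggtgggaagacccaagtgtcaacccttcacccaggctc

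The match in the Cpt1a stretch starts at position -94 from the RefSeq start on the strand opposite to the gene, read as TGACCT here, and that of Acadvl at position -87 as AGGTCA. Acadm was the other gene of the 10 with the half-site, at position -249, and it did not pass the test in any comparison. The half-site is in 16.3% of the 32851 promoters of the same 300 bases in the table, and the search for it was added after the other motifs had been run. None of the 10 genes had a match in these windows to a pair of AGGNCA half-sites spaced by 1 base (the DR1 motif of PPARs, in 0.381% of all promoters), to TNAAGGTCA (ERR, 1.28%), to TGTTTAC (FOXO, 3.65%) or to CACGTG (E-box, 7.15%). TGCGCA, the core of the NRF1 motif (7.76%), was in that of Acadm alone, at position -155. All searches covered both strands, and AGGTCA also lies inside the ERR motif and can lie inside DR1. The Cpt1a start in RefSeq lies inside the gene as annotated in Ensembl (chromosome 19, 3322334 to 3385733), so that other starts of this gene are not covered.

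HFD islets were first compared with RD islets, which asks what the high-fat feed did to this set of genes. Cpt1a, Slc25a20, Acadvl and Ucp2 rose, Pdk4 fell, and Cpt2, Acadl, Acadm, Hadha and Hadh did not pass the test. So 4 of the 10 genes rose, where 2.00% of all 27229 genes tested were called higher, and 1 fell, where 1.54% were called lower (edgeR quasi-likelihood test, Benjamini-Hochberg adjusted p under 0.01). The median log2 difference of the 10 was -0.04, against a range of -0.69 to 0.63. Over all 27229 genes, 368 had HFD and RD samples that did not overlap, in either direction.

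Cpt1a, the step of entry that malonyl-CoA inhibits (chromosome 19, plus strand, 22 exon blocks), had 1490, 1849 and 2114 normalized counts as the lowest, median and highest RD sample, and 2631, 2892 and 3009 in HFD. Every HFD sample was above every RD sample. The difference was 0.63 on the log2 scale (SE 0.08, 1.54-fold, edgeR adjusted p = 1.26e-05). It was 0.74 among replicates 1 to 4 and 0.49 among replicates 5 to 7, both past the threshold.

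Slc25a20, the next step of the carnitine shuttle (chromosome 9, 108662088 to 108684641), had 653, 698 and 806 normalized counts in RD and 833, 990 and 1116 in HFD. These groups did not overlap either, and HFD was 1.37-fold higher (log2 0.45, SE 0.07, edgeR adjusted p = 0.00029). The log2 difference was 0.58 in the first library set and 0.28 in the second, where it did not pass (edgeR adjusted p = 0.0369). Cpt2, the last step of the shuttle (chromosome 4, 107903981 to 107923610), had 1434, 1608 and 1686 in RD and 1400, 1441 and 1667 in HFD. The groups overlapped, and the log2 difference of -0.12 (SE 0.05) did not pass the test (edgeR adjusted p = 0.196).

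Of the acyl-CoA dehydrogenases, Acadvl (chromosome 11, 70010183 to 70015411) had 1933, 2279 and 2500 normalized counts in RD and 2641, 2731 and 3564 in HFD, with no overlap. It rose 1.31-fold (log2 0.39, SE 0.07, edgeR adjusted p = 0.000743), by 0.43 in the first library set (edgeR adjusted p = 0.0102) and 0.35 in the second (edgeR adjusted p = 0.00786). Of its exon bases 42.9% overlap Dvl2 on the opposite strand, and counting without strand kept 46.8% of its read pairs, so that its level rests on strand-specific counting. Acadl (chromosome 1, 66830839 to 66863277), with medians of 738 in RD and 723 in HFD, and Acadm (chromosome 3, 153922357 to 153944632), with medians of 820 and 769, overlapped between the groups and had log2 differences of -0.08 (SE 0.07) and -0.09 (SE 0.06).

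The dehydrogenases of the later step did not pass the test. Hadha (chromosome 5, 30118304 to 30155162), the alpha subunit of the trifunctional protein, had medians of 3690 in RD and 3630 in HFD and a log2 difference of -0.01 (SE 0.06). Hadh (chromosome 3, 131233419 to 131272101), a gene whose loss causes congenital hyperinsulinism in people, had 21890, 23550 and 26230 in RD and 17570, 21830 and 23910 in HFD. In 4 of 7 HFD samples it was below every RD sample, and the log2 difference of -0.16 (SE 0.06) did not pass (edgeR adjusted p = 0.125).

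Pdk4 (chromosome 6, 5483351 to 5496309, minus strand) had 352, 692 and 882 normalized counts in RD and 319, 367 and 578 in HFD. RD replicate 4, at 352, lay among the HFD samples, and the other 6 RD samples, from 661 to 882, lay above every HFD sample. Pdk4 fell by 0.69 on the log2 scale (SE 0.15, 0.622 of the RD level, edgeR adjusted p = 0.00448). The difference did not pass within the library sets (-0.64, adjusted p = 0.0966, and -0.74, adjusted p = 0.0145, both edgeR), in a fit of the RD and HFD groups alone (edgeR adjusted p = 0.0169), or in 6 of the 21 fits that left out 1 sample. Without RD replicate 4 it was -0.79 (edgeR adjusted p = 0.00031).

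Ucp2 (chromosome 7, 100493337 to 100502020) had 8828, 9226 and 9638 normalized counts in RD and 10200, 11640 and 12750 in HFD. The groups did not overlap, and Ucp2 rose 1.25-fold (log2 0.32, SE 0.06, edgeR adjusted p = 0.00158). The log2 difference was 0.30 in the first library set (edgeR adjusted p = 0.0877) and 0.34 in the second (edgeR adjusted p = 0.00426).

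**Figure D2:**
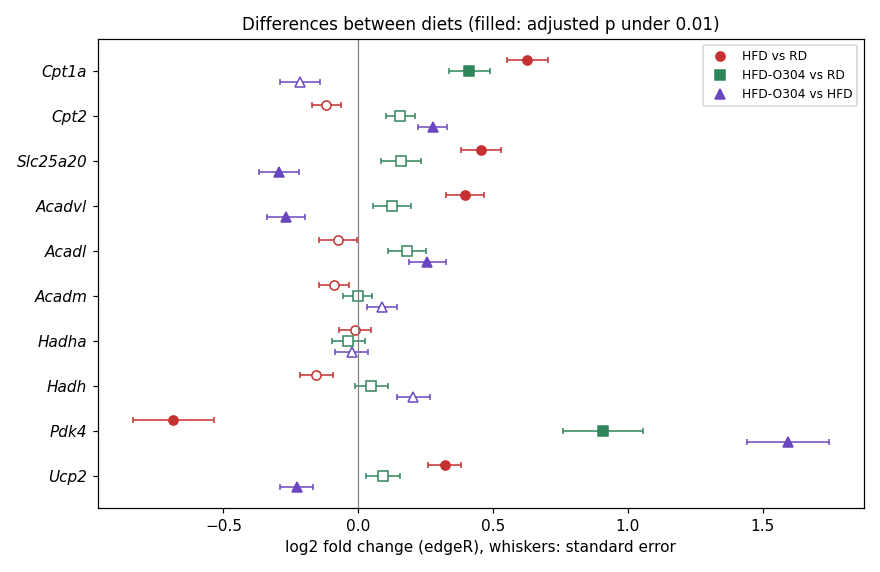
Log2 fold changes of the 10 genes from edgeR (horizontal axis, whiskers of 1 standard error) for HFD against RD (circles), HFD-O304 against RD (squares) and HFD-O304 against HFD (triangles), filled where the adjusted p was under 0.01. The values for Pdk4 run from -0.69 to 1.59, and those of the other 9 genes from -0.30 to 0.63.

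HFD-O304 islets were next compared with RD islets, which asks how far the genes of mice on HFD with O304 differed from those on chow. Cpt1a and Pdk4 rose, and the other 8 genes did not pass the test. These were 2 of 10 genes called higher, where 0.404% of all genes were, and 0 of 10 called lower, where 0.903% were. At an unadjusted edgeR p under 0.05, 5 of the 10 were higher and 0 lower, and DESeq2 also called 2 higher and 0 lower. Of all 27229 genes, 3912 had an unadjusted edgeR p under 0.05 and DESeq2 called 727, both counted in either direction. The HFD-O304 and RD samples did not overlap, in either direction, for 426 of them. The median log2 difference of the 10 was 0.14.

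Cpt1a had 2106, 2478 and 2641 normalized counts in HFD-O304, so that 6 of 7 samples lay above the highest RD sample, 2114. The log2 difference from RD was 0.41 (SE 0.08, 1.33-fold, edgeR adjusted p = 0.0016), with 0.46 in the first library set and 0.34 in the second, neither past the threshold in the smaller sets (edgeR adjusted p = 0.0475 and 0.0156). Pdk4 had 1038, 1230 and 1517 normalized counts in HFD-O304, and every sample was above the highest RD sample, 882. It rose 1.88-fold over RD (log2 0.91, SE 0.15, edgeR adjusted p = 0.000401), by 1.03 in the first library set and 0.74 in the second (edgeR adjusted p = 0.0197 and 0.0159). The other 8 genes had log2 differences between -0.04 for Hadha and 0.18 for Acadl, each with overlapping groups and standard errors from 0.05 to 0.07.

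HFD-O304 was last compared with HFD, which asks what O304 changed within the high-fat feed. Both comparisons with HFD-O304 use the same 7 HFD-O304 samples, and both comparisons with HFD the same 7 HFD samples, so that they are not independent of one another. Pdk4, Cpt2 and Acadl rose and Slc25a20, Acadvl and Ucp2 fell. These were 3 of 10 genes called higher, where 5.08% of all genes were, and 3 of 10 called lower, where 6.79% were. The median log2 difference of the 10 was 0.03. Over all 27229 genes, 1680 had HFD-O304 and HFD samples that did not overlap, in either direction.

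Pdk4 had the widest difference. Every HFD-O304 sample, from 1038 up, was above the highest HFD sample, 578, and the level was 3.02-fold higher (log2 1.59, SE 0.15, edgeR adjusted p = 2.16e-08). It was 1.66 in the first library set and 1.48 in the second, and past the threshold in both. In all 21 fits that left out 1 sample the difference passed, between 1.53 and 1.69.

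Cpt2 had 1606, 1775 and 1894 normalized counts in HFD-O304, and 6 of 7 samples were above the highest HFD sample, 1667. That sample, HFD replicate 7, stood apart from the other HFD samples, the next of which was at 1472. Cpt2 rose 1.21-fold over HFD (log2 0.28, SE 0.05, edgeR adjusted p = 0.000421), by 0.26 and 0.28 within the library sets (edgeR adjusted p = 0.0283 and 0.0137). Acadl had 724, 804 and 995 in HFD-O304 against 632, 723 and 733 in HFD, and 6 of 7 HFD-O304 samples were above the highest HFD sample. Its rise of 1.195-fold (log2 0.26, SE 0.07, edgeR adjusted p = 0.00964) was at the edge of the threshold, and 12 of 21 fits that left out 1 sample did not pass, with adjusted p up to 0.0297. The log2 difference of Acadl was 0.25 in both library sets (edgeR adjusted p = 0.137 and 0.0654).

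Slc25a20 had 702, 798 and 879 normalized counts in HFD-O304, and 6 of 7 samples were below the lowest HFD sample, 833. It fell by 0.30 on the log2 scale from HFD (SE 0.07, edgeR adjusted p = 0.0046), with -0.41 in the first library set (edgeR adjusted p = 0.0034) and -0.14 in the second (edgeR adjusted p = 0.285). Of the fits that left out 1 sample, 5 of 21 did not pass, with adjusted p up to 0.0176. Acadvl had 2307, 2406 and 2808 in HFD-O304, 6 of 7 samples being below the lowest HFD sample, 2641. It fell by 0.27 (SE 0.07, edgeR adjusted p = 0.00708), with -0.37 and -0.14 within the sets (edgeR adjusted p = 0.0116 and 0.205), and 11 of 21 fits that left out 1 sample did not pass, with adjusted p up to 0.0268.

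Ucp2 had 8002, 9847 and 11130 normalized counts in HFD-O304, overlapping HFD, and 4 of 7 samples were below the lowest HFD sample, 10200. It fell by 0.23 (SE 0.06, edgeR adjusted p = 0.00897), with -0.27 and -0.19 within the sets (edgeR adjusted p = 0.0745 and 0.0438), and 18 of 21 fits that left out 1 sample did not pass, with adjusted p up to 0.021. Without HFD-O304 replicate 1, whose labels conflict, Slc25a20, Acadvl and Ucp2 did not pass, while Pdk4, Cpt2 and Acadl did. In a fit of the HFD and HFD-O304 groups alone Acadvl, Acadl and Ucp2 did not pass (edgeR adjusted p = 0.0113, 0.0202 and 0.0211).

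Cpt1a lay between the other groups: 6 of 7 HFD-O304 samples were below the lowest HFD sample, 2631, and the log2 difference from HFD of -0.22 (SE 0.08) did not pass (edgeR adjusted p = 0.0448). Hadh had 23350, 24680 and 25790 in HFD-O304, and 5 of 7 samples were above the highest HFD sample, 23910. Its difference from HFD of 0.20 (SE 0.06) did not pass with edgeR (adjusted p = 0.0185) and did with DESeq2 (adjusted p = 0.00592). Acadm at 0.09 (SE 0.06) and Hadha at -0.02 (SE 0.06) had the smallest differences.

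Ratios within a library do not depend on its depth, and are given as descriptions of levels per kb, with no test. Cpt1a stood at 0.359 ± 0.0507 of Cpt2 in RD, 0.605 ± 0.0541 in HFD, with 0.428 ± 0.0287 in HFD-O304 (SD, n = 7 each), and every HFD sample was above all samples of the other groups. Slc25a20 stood at 0.22 ± 0.0208 of Cpt2 in RD, 0.329 ± 0.0567 in HFD, with 0.221 ± 0.0167 in HFD-O304, and Acadvl at 2.30 ± 0.272, 3.18 ± 0.431 and 2.22 ± 0.13 times Acadl. For both ratios the RD and HFD-O304 ranges overlapped, and the HFD samples were above all HFD-O304 samples. The HFD and RD ranges overlapped for Slc25a20 over Cpt2 (lowest HFD sample 0.252, highest RD sample 0.260). They did not for Acadvl over Acadl (2.72 and 2.67). Hadha over Hadhb, the 2 subunits of the trifunctional protein, was 1.77 ± 0.129, 1.76 ± 0.0977 and 1.70 ± 0.167, with overlapping ranges. Among the PDH kinases Pdk1 to Pdk4, Pdk4 made up 20.3% ± 4.77 in RD, 13.05% ± 3.05 in HFD, with 34.2% ± 4.22 in HFD-O304. Cpt1a made up 83.0% ± 2.61, 90.0% ± 1.13 and 84.7% ± 2.28 of the summed CPT1 genes, and Ucp2 at least 99.6% of the summed Ucp1, Ucp2 and Ucp3 in every sample.

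**Figure D3:**
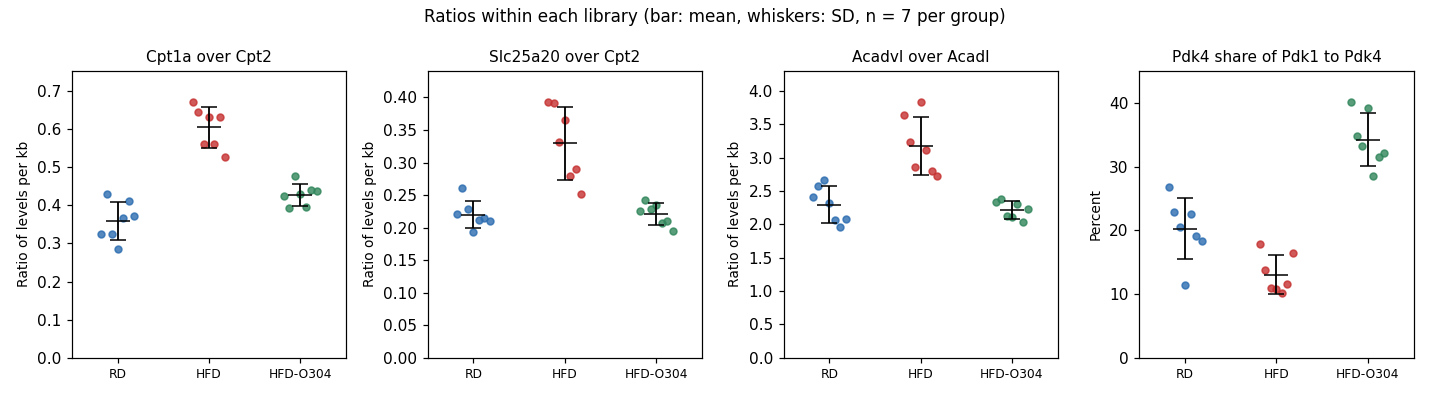
Ratios of levels per kb within each library (vertical axes from 0) for Cpt1a over Cpt2, Slc25a20 over Cpt2 and Acadvl over Acadl, and the share of Pdk4 in Pdk1 to Pdk4 in percent, by diet group, with bars at the mean and whiskers of 1 SD (n = 7). Mean ratios are highest in HFD in the first 3 panels, and the mean share of Pdk4 is highest, 34.2%, in HFD-O304.

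Cell type markers moved between the same groups. Of the 6 alpha cell markers, 5 were lower in HFD than RD, among them Gcg, and Ttr was higher, and in HFD-O304 against HFD the same 5 were higher and Ttr lower, all past the threshold. Their summed level was 855200 to 1068000 normalized counts in RD, 388900 to 704100 in HFD, with 869700 to 1162000 in HFD-O304, with none of the 6 at 0. Pdk4 moved in the same direction as this sum in HFD against RD and in HFD-O304 against HFD. Between RD and HFD-O304 the ranges of the sums overlapped and those of Pdk4 did not. The part of the alpha cell markers in the Pdk4 result was not tested. In RNA of whole islets, fewer cells of a type and less RNA per cell cannot be told apart.

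**Figure D4:**
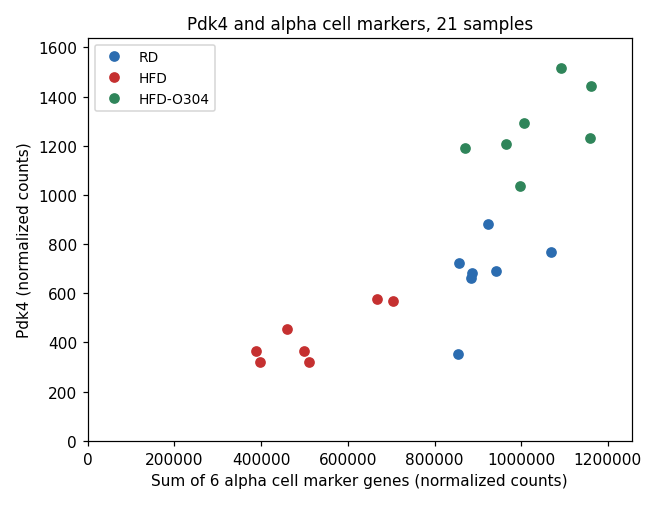
Pdk4 (vertical axis, normalized counts) against the summed level of 6 alpha cell markers (horizontal axis, normalized counts), 1 point for each of the 21 samples, coloured by diet. HFD samples lie lowest on both axes except that RD replicate 4, at 352, has a Pdk4 level among them. HFD-O304 samples have more Pdk4 than RD samples, and their marker sums overlap. The part of the markers in the Pdk4 levels was not tested.

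Among the other lists, the delta and PP cell markers had 2 of 4 lower in HFD than RD and 3 of 4 higher in HFD-O304 than HFD. Of 7 fibroblast and stellate markers, 3 were lower in HFD-O304 than HFD, of 8 endothelial markers 2, and of 6 duct markers 4 were higher. All 8 endothelial markers had negative differences there, 7 at an unadjusted edgeR p under 0.05 and 5 called by DESeq2. In HFD against RD all 7 fibroblast and stellate and all 7 macrophage markers had positive differences, 0 called by edgeR. Of these, 5 and 4 had an unadjusted edgeR p under 0.05, and DESeq2 called 0 and 1. In HFD-O304 against RD, where Cpt1a and Pdk4 rose, the duct marker Krt19 was higher (log2 1.05, edgeR adjusted p = 0.00164) and the endothelial marker Pecam1 lower (-0.33, edgeR adjusted p = 0.00693). Of 10 beta cell markers, 1 was higher and 2 lower in HFD than RD, and 3 were higher and 3 lower in HFD-O304 than HFD. Macrophage markers had 1 of 7 called, higher, in HFD-O304 against HFD, and 4 of the 7 had negative differences there. At an unadjusted edgeR p under 0.05, 1 was higher and 3 lower, and DESeq2 called 1 higher and 1 lower. Adipocyte markers summed to at most 106.9 normalized counts in any sample, and 4 of 6 were too low to be tested. Muscle markers, 3 of 4 tested, and acinar markers had 0 called by edgeR or DESeq2 in the 3 comparisons, with 1 acinar marker, in HFD-O304 against RD, at an unadjusted edgeR p under 0.05. Of all 27229 genes, 5714 in HFD against RD, 3912 in HFD-O304 against RD and 7989 in HFD-O304 against HFD had such a p. DESeq2 called 1758, 727 and 4045 genes. These totals, counted in either direction, stand beside the lists below too. The part of the cell type markers in the results for the 10 genes was not tested.

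The other enzymes of the matrix pathway are background to these changes. Of 13, Acaa2, the thiolase of the last step, rose in HFD islets (log2 0.34, SE 0.07, edgeR adjusted p = 0.00344), and the other 12 did not pass, with a median of 0.03 over the list. DESeq2 called 3 of the 13 higher and 0 lower in this comparison, and 4 were higher and 2 lower at an unadjusted edgeR p under 0.05. Against HFD, HFD-O304 islets had higher Eci1, an enoyl-CoA isomerase (0.22), and Etfa, which takes electrons from the acyl-CoA dehydrogenases (0.23), and lower Acad11 (-0.43). Against RD, 0 of 13 passed in edgeR and in DESeq2, and 4 had an unadjusted edgeR p under 0.05.

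Of 12 genes that supply acyl-CoA and carnitine, Acot13, an acyl-CoA thioesterase, fell in HFD (log2 -0.32, edgeR adjusted p = 0.00718) and was 0.53 higher in HFD-O304 than in HFD. The fall of Acot13 in HFD did not pass in 13 of 21 fits that left out 1 sample (adjusted p up to 0.0207), while its rise with O304 passed in all of them. Acsl6, an acyl-CoA synthetase, was lower in HFD-O304 than in RD (-0.28) and HFD (-0.33). Acot9 was lower (-0.61) and Cpt1c, the CPT1 gene of the brain, higher (0.47) in HFD-O304 than in HFD. Cpt1b, the CPT1 gene of muscle, had means of 0.774 to 3.004 normalized counts. The 3 genes of malonyl-CoA control, Acaca, Acacb and Mlycd, had 0 called by edgeR in all 3 comparisons. Among them Acaca, which makes malonyl-CoA, was at -0.20 in HFD against RD (edgeR adjusted p = 0.0274), was called lower there by DESeq2, and was the 1 gene of the list with an unadjusted edgeR p under 0.05 in that comparison. In HFD-O304 against RD and against HFD, the list had 0 and 1 genes with an unadjusted edgeR p under 0.05, and 0 in DESeq2.

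Of 10 genes around the pyruvate dehydrogenase complex, 0 were called in either comparison with RD, with 1 (HFD) and 3 (HFD-O304) lower at an unadjusted edgeR p under 0.05, 1 called by DESeq2 in HFD and 0 in HFD-O304. In HFD-O304 against HFD, Pdk3 (-0.31) and Pdha1 (-0.22), a subunit of the complex, fell, and the fits that left out 1 sample did not pass in 4 of 21 for Pdk3 and 12 of 21 for Pdha1. Pdk1 and Pdk2 did not pass. Their mean normalized counts (RD first, HFD-O304 last) were 1285, 1433 and 1220 for Pdk1 and 1207, 1241 and 1139 for Pdk2. The means of Pdk4 were 679.7, 425.1 and 1274. These counts are not scaled to gene length, so they do not rank the kinases by level. Among the 4 kinases Pdk4 was the one called higher in HFD-O304 than in HFD, and Pdk3 was called lower. Of 6 tested uncoupling proteins and adenine nucleotide carriers beside Ucp2, 0 were called by edgeR or DESeq2 in the 3 comparisons, with 1, 0 and 0 at an unadjusted edgeR p under 0.05.

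Of 17 peroxisomal genes, 0 were called in the comparisons with RD (3 and 4 at an unadjusted edgeR p under 0.05, 1 and 2 by DESeq2), and Pex11a rose (0.32) and Acox3 fell (-0.26) in HFD-O304 against HFD. Of 12 further PPAR target genes, 10 were tested. Angptl4, an inhibitor of lipoprotein lipase, rose in both HFD groups over RD (1.27 and, with O304, 1.49), from a low mean of 20.3 normalized counts in RD to 49.3 and 57.7. These rises of Angptl4 did not pass in 17 of 21 and 8 of 21 fits that left out 1 sample (adjusted p up to 0.0335 and 0.0163). In a separate list, of ketone body enzymes, Oxct1, which uses ketone bodies, was lower in HFD-O304 than in RD (-0.32). Among the PPAR target genes, Creb3l3 rose in HFD (0.97) and was lower in HFD-O304 than in HFD (-0.81). Fabp3 was lower in HFD-O304 than in HFD (-0.62). The lipid carriers Cd36 and Fabp4 rose in all 3 comparisons, Cd36 by 4.13 and Fabp4 by 2.69 in HFD-O304 over RD. Of 11 regulators, Ppargc1a, a coactivator of oxidative genes, fell in HFD (-0.86) and was higher in HFD-O304 than in HFD (0.98), where Lpin1 was higher too (0.37), and 0 of 11 were called in HFD-O304 against RD by edgeR or DESeq2, none with an unadjusted edgeR p under 0.05. Of the other calls in this paragraph, fits that left out 1 sample did not pass in 16 of 21 for Fabp3, 13 for Lpin1, 9 for Pex11a, 7 for Oxct1, 7 for Creb3l3 in each of its comparisons and 1 for Ppargc1a in HFD against RD.

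**Figure D5:**
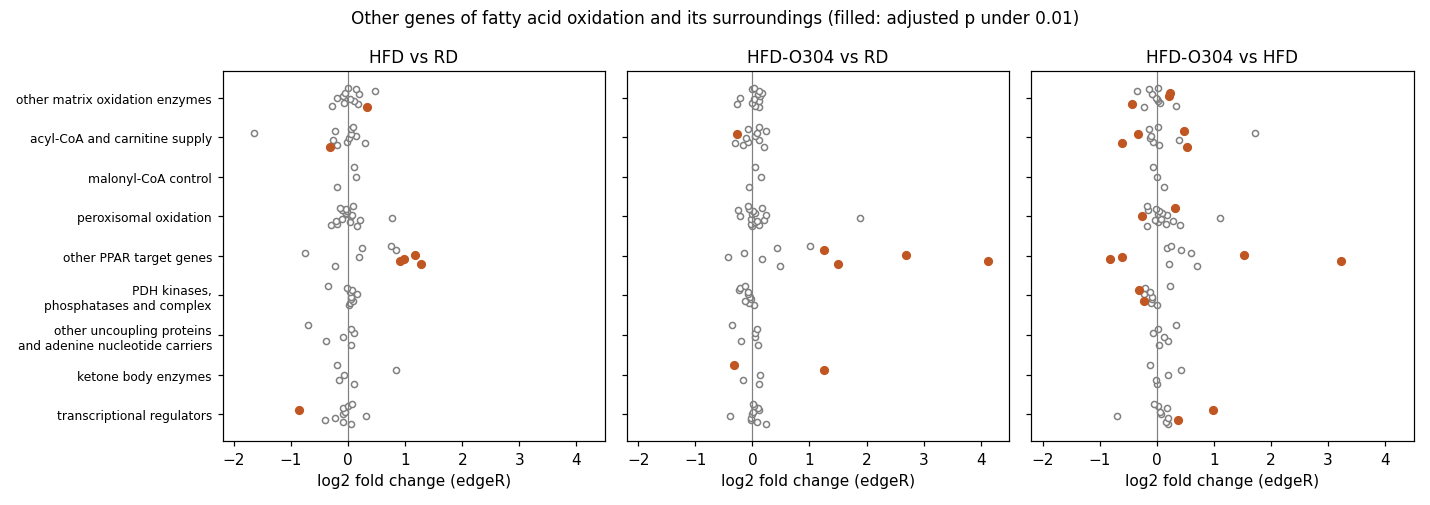
Log2 fold changes from edgeR (horizontal axes) of the other genes of fatty acid oxidation and its surroundings, by list (rows), in HFD against RD, HFD-O304 against RD and HFD-O304 against HFD, filled where the adjusted p was under 0.01. The farthest points, up to 4.13, belong to Cd36 among the PPAR target genes.

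Genes most like Pdk4, Cpt1a and Slc25a20, whose group means spread most, were named by Pearson's r on log2(normalized count + 1) over the 21 samples, among the 13206 genes that averaged 50 or more normalized counts. The 21 points share the difference between diets and their libraries, so the values are descriptions. For Pdk4 these were Edn3 (r = 0.937), Ugt8a (0.92), 1700086L19Rik (0.918), Dpp4 (0.918) and Cacng4 (0.917), each with its lowest mean in HFD and its highest in HFD-O304. For Cpt1a they were 6330403K07Rik (r = 0.811), Acaa2 (0.79), Inhbb (0.786), Tspan18 (0.782) and Gpr155 (0.77), each with its highest mean in HFD. For Slc25a20 they were Ntpcr (r = 0.889), Ccne2 (0.884), Igsf1 (0.879), Apex2 (0.877) and Pdxdc1 (0.874), also highest in HFD.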

How the data were processed

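RNA from 7 islet samples of each group was sequenced as 50-base read pairs. The authors aligned the reads with STAR to GRCm38 (Ensembl version 96) and deposited unnormalized counts of read pairs per gene. STAR leaves out a pair that maps to more than 1 place or gene, so a gene loses what it shares with copies or with genes on the same strand. The strand column with the larger counts was used here, and it held 28.8 to 36.3 times the counts of the other. The sources used here do not name the column that the study used. All 55536 identifiers were found in the annotation (GENCODE M21). Genes with at least 10 read pairs over the 21 samples (27229) were tested with the edgeR 4.0.16 quasi-likelihood test in R 4.3.3 (TMM, all 3 groups in 1 fit, no covariates), at a Benjamini-Hochberg adjusted p under 0.01 over all genes, the study's threshold. Every p in the text is two-sided. The study used DESeq2, run here (1.42.0) as an alternative, with other filters, scaling, unstranded counts, library sets, the replicate block, an adjusted p under 0.05 and fits without each sample. For normalized counts, each count was divided by the DESeq2 size factor of its sample. The fits were tested on simulated data. The chi-square per gene between replicates of the same group was at least 9.83, so that no library was a repeat of another in its group. Libraries of different groups were not compared in this way. The pools of mice were the replicates, and 7 per group and the depth of the shallowest sample set the precision. The 10 genes and the lists were chosen with earlier results of these data known. All 10 are named, with genes of the other lists that passed in a comparison, at most 4 per list and comparison by size of change, except for some that are not reported here. Promoters came from RefSeq (GRCm38.p6). A planned search of protein sequences was not done.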

Additional observations from a re-analysis of the deposited data

Results flagged for a closer look

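Among the 30 groups of 7 values, 10 genes in 3 diet groups, 3 had a highest or lowest sample that stood apart by Dixon's test at the 95% level, where chance flags about 1 in 20 groups. Pdk4 in RD replicate 4, at 352.3 normalized counts, was below the next RD sample at 660.9, and the gap was 0.583 of the range of the group. Cpt2 in HFD replicate 7, at 1667, was above the next HFD sample at 1472 (0.728 of the range). Acadvl in HFD-O304 replicate 4, at 2808, was above the next sample at 2467 (0.68 of the range). Without the sample named for it, each of these genes kept the direction of the differences that had passed, and they passed again.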

How the results depend on the processing

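Across 31 alternatives, the members that passed kept their direction. The counts of all genes called were 963, 356 and 3230 in HFD against RD, HFD-O304 against RD and HFD-O304 against HFD. They were 1758 and 727 with DESeq2 in the first 2 comparisons, 2148, 785 and 5150 at an adjusted p under 0.05, 563, 85 and 2001 in replicates 1 to 4, and 307, 228 and 1456 in replicates 5 to 7. A fit of the compared groups alone called 627 genes in HFD against RD, and library set as a covariate called 1611 and 543 in the comparisons with RD.

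Of the 10 genes, 5, 2 and 6 passed. In replicates 1 to 4 these were 2, 0 and 2, and in replicates 5 to 7 they were 3, 0 and 1, with fewer samples. For the counts of 0 the edgeR adjusted p of Pdk4 was 0.0197 and 0.0159 and that of Cpt1a 0.0475 and 0.0156. A fit of HFD-O304 and HFD alone called 3.

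Leaving out each sample in turn gave 589 to 1594, 221 to 423 and 2643 to 3578 genes, the extremes in HFD against RD coming without RD replicate 7 and HFD replicate 7, and 599 without HFD replicate 4. In HFD-O304 against RD the lowest were without RD replicate 3 (221) and HFD-O304 replicates 5 (225) and 1 (235). It gave 4 to 5, 2 to 2 and 2 to 6 of the 10 genes, 2 without HFD replicate 4, and 3 without HFD replicate 2 or HFD-O304 replicates 1, 5, 6 or 7. Pdk4 in HFD against RD did not pass without RD replicates 1 or 5 or HFD replicates 3, 4, 5 or 6 (adjusted p up to 0.0143). Slc25a20 in HFD-O304 against HFD did not pass without HFD replicates 1, 2 or 4 or HFD-O304 replicates 1 or 7, and Hadh passed without HFD replicate 7 (0.00766).

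Small differences changed sign. Hadha in HFD against RD (-0.01) was 0.0057 in replicates 5 to 7 and -0.0407 to 0.0272 in the fits without 1 sample, and in HFD-O304 against RD -0.0705 to 0.0068. Acadm in HFD-O304 against RD (-0.0024) was 0.0106 with no filter, 0.0014 with unstranded counts, 0.0038 in replicates 1 to 4 and -0.0251 to 0.0247 in the fits without 1 sample.

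Samples with the same replicate number correlated between -0.536 and 0.69 in their deviations from the group means, not all above 0.1, so the numbers were not taken as pairs. The replicate block called 1577, 543 and 3763 genes and 5, 2 and 5 of the 10, Acadl in HFD-O304 against HFD being the one that did not pass (adjusted p = 0.0142). The cause of these changes was not tested.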
